A study of Mus musculus with 22 samples.

Results

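The Zscan4 genes are a cluster of near-identical copies on mouse chromosome 7 that encode proteins with a SCAN domain and zinc fingers. All 6 named copies, Zscan4a, Zscan4b, Zscan4c, Zscan4d, Zscan4e and Zscan4f, were taken by gene symbol, and each has a row in all 3 comparison tables, out of 20206 genes in any table. Zscan4 is a marker of the transient state in which a few cells of a pluripotent culture switch on genes of the early cleavage embryo, known as the two-cell-like state. In mouse embryonic stem cells the proteins have been tied to telomere lengthening by recombination, and the state is entered and left again by cells that stay pluripotent. In the mouse, Zscan4c is known as the copy most used in stem cells and Zscan4d as the one most used in the early embryo.

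The cells carried Col2.3GFP, a green fluorescent reporter switched on with type I collagen in osteoblasts. The groups are GFP-positive cells sorted from osteoblast cultures made from embryonic stem cells (labelled ESC-OB-GFPplus, 3 samples, called sorted GFP+ below), such cultures unsorted (ESC-OB, 3), the undifferentiated embryonic stem cells (ESC, 3), osteoblast cultures made from induced pluripotent stem cells (iPSC-OB, 2) and those stem cells undifferentiated (iPSC, 2). Differentiation ran through 6 days as embryoid bodies, given retinoic acid (0.1 µM) on day 3 and freed of it on day 5, and osteogenic medium up to day 35 to 40. ESC and ESC-OB were at passage 20 to 30, iPSC and iPSC-OB at passage 10 to 20, each kind came from 1 line, stem cells were grown with or without feeder cells, and the sources used here give neither separate cultures nor the kit of each library.

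Each table holds the authors' DESeq2 comparison of a differentiated group with its stem cells: a base mean over all libraries of the fit, and a log2 fold change shrunk towards 0. A base mean is a mean over libraries of whole reads divided by each library's size factor. From its 15 printed digits and the fold changes, the whole reads of each Zscan4 gene in every library were read back, with 1 solution per gene and fit. Libraries could not be tied to labelled samples, so they are called deepest, middle and shallowest within a group, and values are in normalised reads (reads divided by the size factor). The tables rest on 3 libraries in each ESC group, 2 in iPSC-OB and 3 in iPSC, where the labels used here name 2 iPSC samples. Estimated depths without the ribosomal transcript Rn45s in M reads were 20.2 to 27.1 (sorted GFP+), 6.30 to 10.8 (ESC-OB), 4.51 to 19.6 (ESC), 9.40 to 16.5 (iPSC-OB) and 10.0 to 12.5 (iPSC). The deepest iPSC library stood apart for the Zscan4 genes, and results that rest on it are given with and without it.

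The promoters are shown because the copies moved together and because their letters show how little separates them. RefSeq promoter sequences (build GRCm38.p6) were held for Zscan4b, Zscan4c, Zscan4d and Zscan4f. The windows below span 187 bases, from 160 bases before the TATA box (TATAAAA) to 20 bases past it, 5′ to 3′ on each gene's strand. Capitals mark the 12 positions at which the 4 windows are not all alike.
Zscan4b: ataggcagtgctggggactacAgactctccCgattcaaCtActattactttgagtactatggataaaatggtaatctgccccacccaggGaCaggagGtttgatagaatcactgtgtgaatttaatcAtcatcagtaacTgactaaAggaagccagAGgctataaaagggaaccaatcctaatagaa
Zscan4c: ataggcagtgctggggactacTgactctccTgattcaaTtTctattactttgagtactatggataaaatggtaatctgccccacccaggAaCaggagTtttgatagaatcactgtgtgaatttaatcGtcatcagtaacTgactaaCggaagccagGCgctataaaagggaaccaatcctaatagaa
Zscan4d: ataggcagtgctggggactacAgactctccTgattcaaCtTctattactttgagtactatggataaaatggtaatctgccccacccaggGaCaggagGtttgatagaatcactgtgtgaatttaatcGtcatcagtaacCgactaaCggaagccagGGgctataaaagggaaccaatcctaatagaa
Zscan4f: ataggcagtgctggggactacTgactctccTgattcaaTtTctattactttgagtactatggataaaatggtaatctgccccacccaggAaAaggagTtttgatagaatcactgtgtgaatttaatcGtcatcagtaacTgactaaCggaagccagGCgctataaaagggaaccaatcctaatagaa
These windows lie at chr7:10905055-10905241 on the minus strand (Zscan4b), chr7:11005531-11005717 on the plus strand (Zscan4c), chr7:11166187-11166373 on the minus strand (Zscan4d) and chr7:11397724-11397910 on the plus strand (Zscan4f). Zscan4c and Zscan4f differed at 1 position of 187, and the pair farthest apart, Zscan4b and Zscan4f, at 11. Across the same table, 5.48% of 32851 mouse promoters of 300 bases hold the letters TATAAAA on either strand; the 4 windows were aligned on them, so their presence is given and not a result.

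The transcripts are near-identical as well. In pairwise local alignments of the longest GENCODE vM21 transcript of each copy, identity ran from 96.6% (Zscan4b and Zscan4d) to 99.7% (Zscan4b and Zscan4e), with Zscan4c and Zscan4f at 99.6%. When each transcript was cut into runs of 50 bases, the share of runs also present in another copy or in a Zscan4 pseudogene was 95.3% for Zscan4f, 91.6% for Zscan4e, 90.3% for Zscan4b, 85.5% for Zscan4c, 63.6% for Zscan4a and 49.6% for Zscan4d. RefSeq lists Zscan4a as a transcribed pseudogene and Zscan4e as a pseudogene. The sources used here do not say how reads that match several copies were counted, so values of single copies are uncertain, and the copies are not 6 independent readings.

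**Figure D1:**
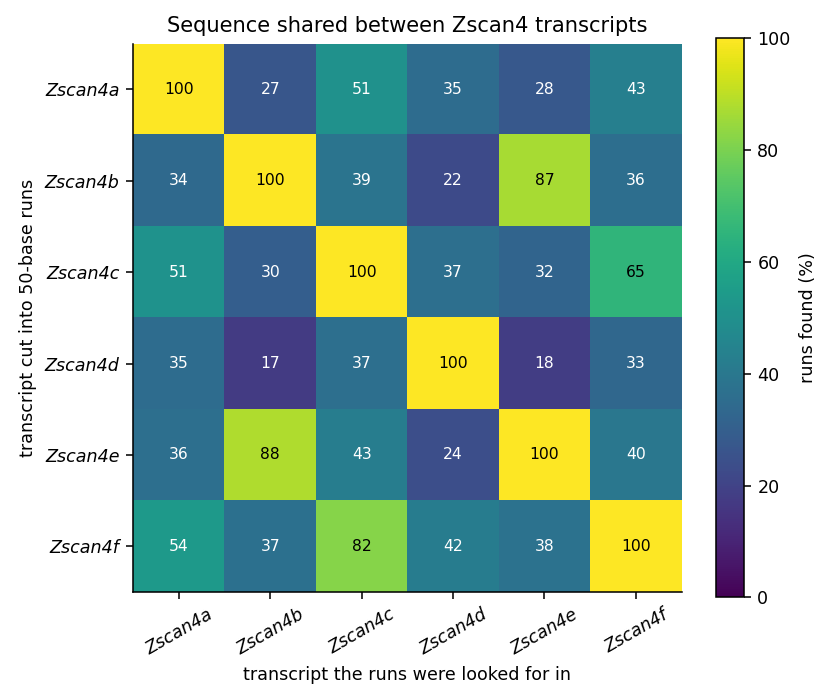
Percent of the 50-base runs of each Zscan4 transcript (rows) that are also found in another copy (columns). Zscan4b and Zscan4e, and Zscan4c and Zscan4f, share the most, and Zscan4d shares the least with any other copy.

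In undifferentiated cells every copy was read in every library. Zscan4f had 1136, 502 and 146 reads in the deepest, middle and shallowest ESC library, or 694, 1122 and 388 normalised reads. Zscan4c was close behind, with 684, 1104 and 396 normalised reads. Per kilobase of transcript these were the highest copies in ESC, at 402 normalised reads per kb for Zscan4f and 320 for Zscan4c on average, while Zscan4d, at 123, was the lowest.

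The other copies lay lower and in the same order of libraries. Zscan4e had 408, 608 and 234 normalised reads in the deepest, middle and shallowest ESC library. Zscan4a had 308, 534 and 202, and Zscan4b had 316, 413 and 181. For Zscan4d the values were 263, 440 and 133. The middle library was the highest and the shallowest the lowest for 6 of 6 copies, and the highest library had 2.29 to 3.31 times the level of the lowest. In the order of ESC means, Zscan4f (734 ± 368), Zscan4c (728 ± 356), Zscan4e (417 ± 187), Zscan4a (348 ± 170), Zscan4b (303 ± 117) and Zscan4d (279 ± 154; SD, n = 3), each neighbour differed by less than the SD of the higher copy, a spread that the copies share. Within libraries Zscan4c was above Zscan4e and Zscan4e above Zscan4a in 3 of 3, and each other pair of neighbours kept its order in 2 of 3.

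In the ESC-OB cultures a small part of this signal was left. Zscan4f had 28, 22 and 10 reads in the deepest, middle and shallowest library, or 29.0, 26.9 and 17.7 normalised reads, and Zscan4c had 25, 21 and 11 reads. Zscan4e had 22, 23 and 6 reads, Zscan4b 17, 16 and 5, Zscan4d 16, 10 and 6, and Zscan4a 10, 13 and 6. Every ESC-OB library held reads of every copy, and for no copy did an ESC-OB library reach the lowest ESC library. Reads per library were recovered for few genes, so the share of all genes without such overlap is not known. Means in ESC-OB were 3.25% (Zscan4c) to 5.06% (Zscan4b) of those in ESC, which is 19.8- to 30.7-fold lower. In bulk libraries, fewer cells in the Zscan4 state and less Zscan4 RNA per cell cannot be told apart.

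The authors' deposited log2 changes for ESC-OB against ESC ran from -4.89 ± 0.41 (standard error; Zscan4c) to -4.23 ± 0.43 (Zscan4b), with a median of -4.55. All 6 copies carry an adjusted p under 0.05 in the authors' deposited table, as falls do for 31% of 18208 genes tested (rises for 38.6%), and the median change of those genes was 0.26. The copies were chosen by their deposited log2 changes in both ESC comparisons, so these values are a description and nothing is read from that count.

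In sorted GFP+ cells no read of any copy was found. All 6 copies had 0 reads in each of the 3 sorted libraries, the deepest of those analysed. At the mean level of the ESC-OB cultures these 3 libraries would together have held 716 Zscan4 reads, and at the ESC level 18377. A count of 0 over the group allows up to 3 reads per copy, or 0.459 normalised reads, which covers counting error only. Whether the sorted libraries were made with another kit is not stated, so sorting and kit cannot be told apart. The ribosomal transcript Rn45s made up an estimated 0.44% of reads in sorted GFP+. It made up 8.26% in ESC-OB, 6.51% in ESC, 4.13% in iPSC-OB and 5.59% in iPSC, and the source of this difference was not tested. Against the limit of 3 reads per copy, the level in sorted GFP+ cells was at least 608-fold (Zscan4d) to at least 1602-fold (Zscan4f) lower than in ESC. The authors' deposited log2 changes, -11.78 ± 1.14 (Zscan4f) to -10.53 ± 1.19 (Zscan4d), are fitted values for a group without reads and so are no measured folds. All 6 are called as falls, as are 32.4% of 18588 genes tested (rises 39.1%) in the authors' deposited table, where the median gene was at 0.28. The difference between both deposited changes, sorted minus unsorted, was -6.94 ± 1.21 for Zscan4f and -6.08 ± 1.27 for Zscan4a, the ends of the range. It is the measure by which the copies were picked, and both comparisons share the ESC libraries.

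**Figure D2:**
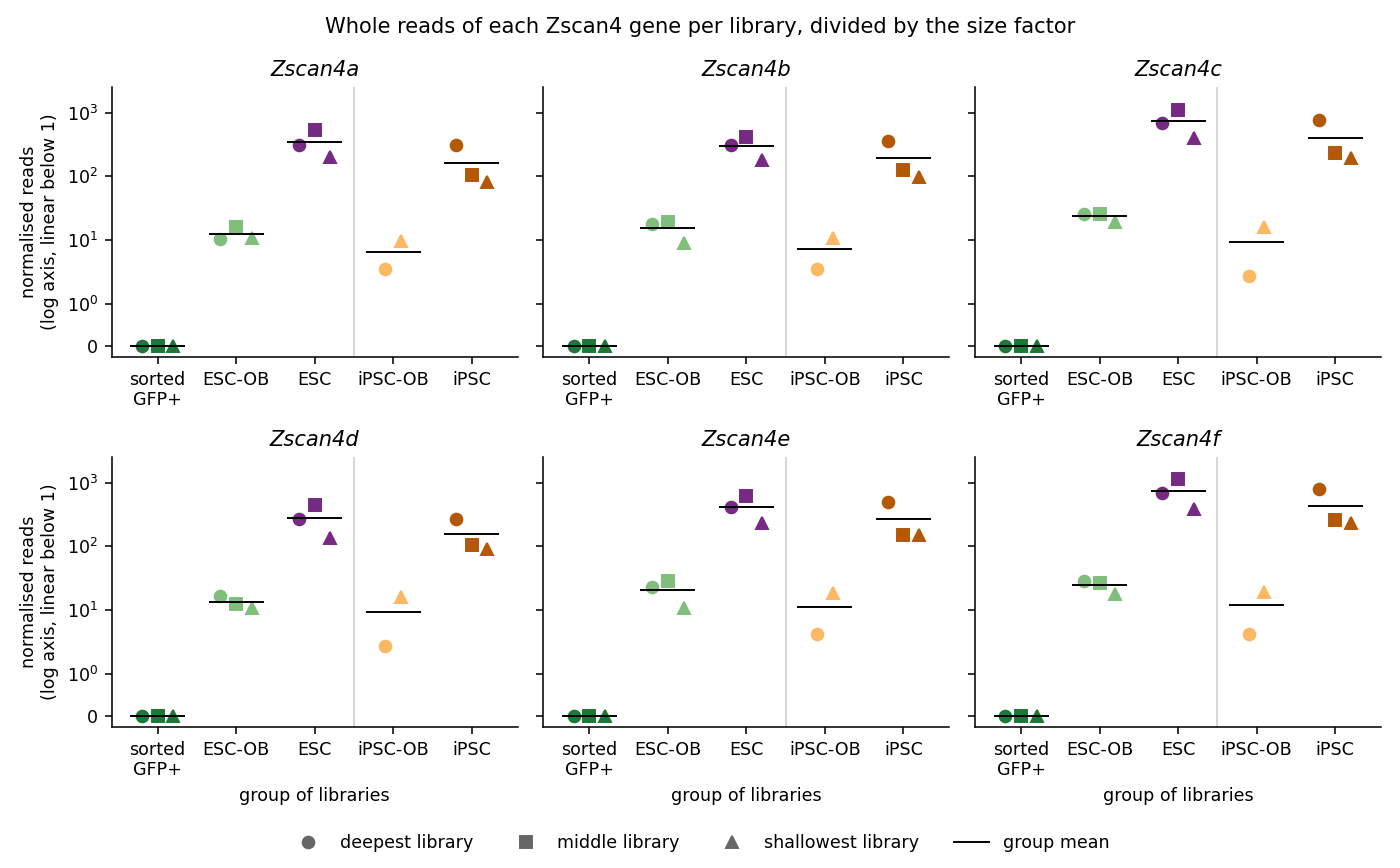
Normalised reads of each Zscan4 gene in every library (log axis, linear below 1), with marks for the deepest, middle and shallowest library of a group and lines for group means. Sorted GFP+ libraries lie at 0, ESC-OB and iPSC-OB libraries between 2.77 and 29.0, and ESC and iPSC libraries at 81.1 or more.

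The iPSC comparison is a separate fit on other cells, and there too every copy fell. Zscan4f had 6 and 16 reads in the deeper and shallower iPSC-OB library, or 4.16 and 19.4 normalised reads, against 791, 260 and 230 in the deepest, middle and shallowest iPSC library. Zscan4c had 2.77 and 15.8 normalised reads in iPSC-OB, against 758, 230.0 and 196 in iPSC. Zscan4e had 4.16 and 18.2 in iPSC-OB, against 490 and then 152 in both remaining iPSC libraries. The highest iPSC-OB library thus stayed far under the lowest iPSC library.

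The lower copies repeated this. Zscan4a had 3.47 and 9.72 normalised reads in iPSC-OB, against 309, 104 and 81.1 in iPSC. Zscan4b had 3.47 and 10.9 in iPSC-OB, against 363, 128 and 97.6 in iPSC, and Zscan4d had 2.77 and 15.8 in iPSC-OB, against 267, 107 and 90.5 in iPSC. Groups did not overlap for any copy, but for what share of all genes this holds is not known. The shallower iPSC-OB library had up to 5.69 times the level of the deeper one, on 74 and 30 reads summed over the copies.

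In the authors' deposited table for iPSC-OB against iPSC, Zscan4c was at -4.95 ± 0.74 and Zscan4f at -4.79 ± 0.70 on the log2 scale (DESeq2 adjusted p = 2.45e-10 and 7.98e-11). Zscan4d had the smallest fall, at -3.75 ± 0.73 (adjusted p = 1.41e-06). All 6 copies were called as falls, as were 23.1% of the 17579 genes tested (rises 26.1%), with a median gene at 0.15. Each copy was also lower in 2 of 2 iPSC-OB libraries than in each iPSC library. The share of all genes for which this holds is not known, so nothing is read from it. From the reads, without shrinkage, the median copy was 26.1-fold lower in iPSC-OB (-4.70 on the log2 scale), or 14.8-fold lower without the deepest iPSC library. Without the shallower iPSC-OB library the median was -5.91 on the log2 scale. The iPSC change minus the ESC-OB change ran from -0.18 ± 0.83 (Zscan4b) to 0.58 ± 0.88 (Zscan4d), each within 1 standard error of 0. The fits were normalised separately and this difference was not tested.

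**Figure D3:**
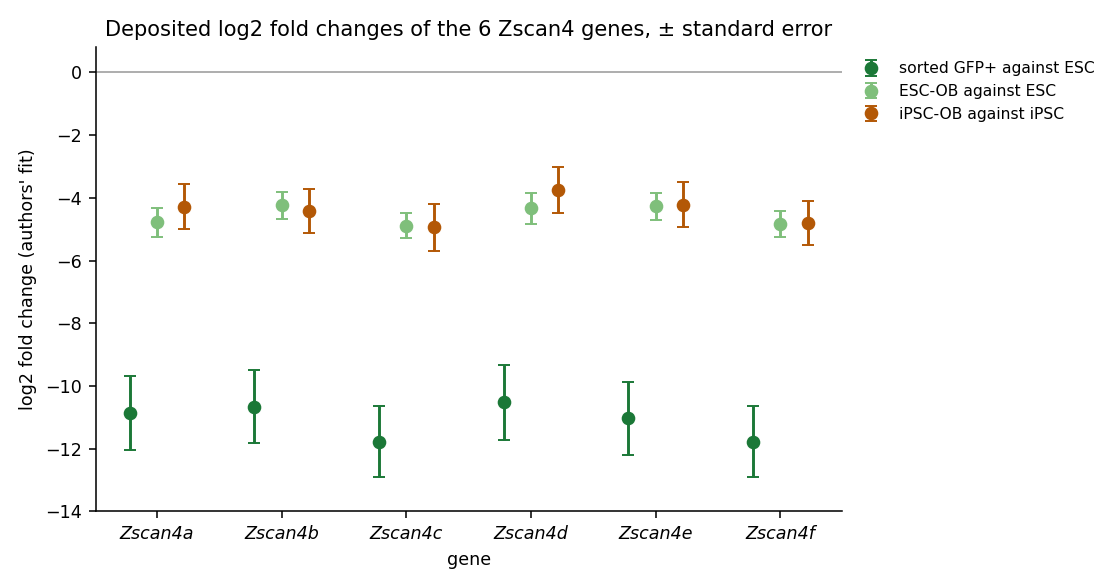
Authors' deposited log2 fold changes of the 6 Zscan4 genes, each with its standard error, for sorted GFP+ against ESC, ESC-OB against ESC and iPSC-OB against iPSC. The sorted values lie between -11.78 and -10.53, while both unsorted comparisons lie between -4.95 and -3.75.

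Summed over the copies and scaled to 1000000 reads without Rn45s, the level was 0 in sorted GFP+, 9.80 ± 2.45 in ESC-OB and 234 ± 113 in ESC (CPM; SD, n = 3 each), and 4.85 ± 4.28 in iPSC-OB (n = 2) and 136 ± 101 in iPSC (n = 3). Without the deepest iPSC library, at 252 CPM, the iPSC level was 77.4 CPM (n = 2), the lower of the 2 being at 71.8 CPM. Zscan4c and Zscan4f held 21.6% and 22.4% of the summed normalised reads in ESC-OB, against 25.9% and 26.1% in ESC. Zscan4e held 18.7% in ESC-OB, against 14.8% in ESC. These ESC-OB shares rest on 57 (Zscan4c), 60 (Zscan4f) and 51 (Zscan4e) reads over the group. Their spread between libraries is not given and the copies may share reads, so no shift is read from them.

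The undifferentiated libraries of 1 group differed more for the Zscan4 genes than for the pluripotency markers and meiotic genes whose reads were recovered. In iPSC the deepest library had 2.71 to 3.55 times the mean of the other 2 for the 6 copies. The same library was also the highest for 15 of 15 other transcripts of the early cleavage state that were searched. Only listed transcripts with a deposited sorted change under -6 and a base mean of at least 10 were searched, so the rest of the list is not covered. Tcstv1, a transcript of this state in mouse, had 81.9 normalised reads there, against 16.7 and 22.3 in the middle and shallowest iPSC library, and Tmem92 had 60.3, against 14.6 and 20.0. Of the 15, Gm13078 had only 3, 1 and 0 reads in the deepest, middle and shallowest iPSC library. Several of the 15 are copies of a family, such as the Usp17l genes, so they are not independent readings.

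Stem cell genes outside that state did not follow. Gdf3, a pluripotency-linked growth factor, had 718, 737 and 733 normalised reads in the deepest, middle and shallowest iPSC library. Nr0b1, a nuclear receptor of pluripotent cells, had 301, 352 and 302, and Fgf4, a growth factor made by them, had 342, 527 and 516. For 7 genes of meiotic recombination and synapsis the deepest library stood at 0.54 to 0.84 times the mean of the other 2. Dmc1, the meiotic recombinase, had 62.1, 82.6 and 87.0 normalised reads. A difference of library preparation or depth was not tested as a part of the Zscan4 spread.

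ESC libraries gave a like picture in another order. The middle library, highest for all 6 Zscan4 genes, was also the highest for 14 of 15 other transcripts of the state, and the shallowest was the lowest for 15 of 15. Tmem92, for one, had 121, 223 and 50.5 normalised reads in the deepest, middle and shallowest ESC library. Gdf3 had 1868, 1504 and 1993 and Fgf4 2717, 2288 and 2681, so that the highest library of these markers and Nr0b1 had 1.16 to 1.33 times the level of the lowest, against 2.29 to 3.31 times for the Zscan4 genes. The 15 transcripts were those of the list with a deposited sorted change under -6 and a base mean of at least 10, so they were picked with the ESC fit in view.

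**Figure D4:**
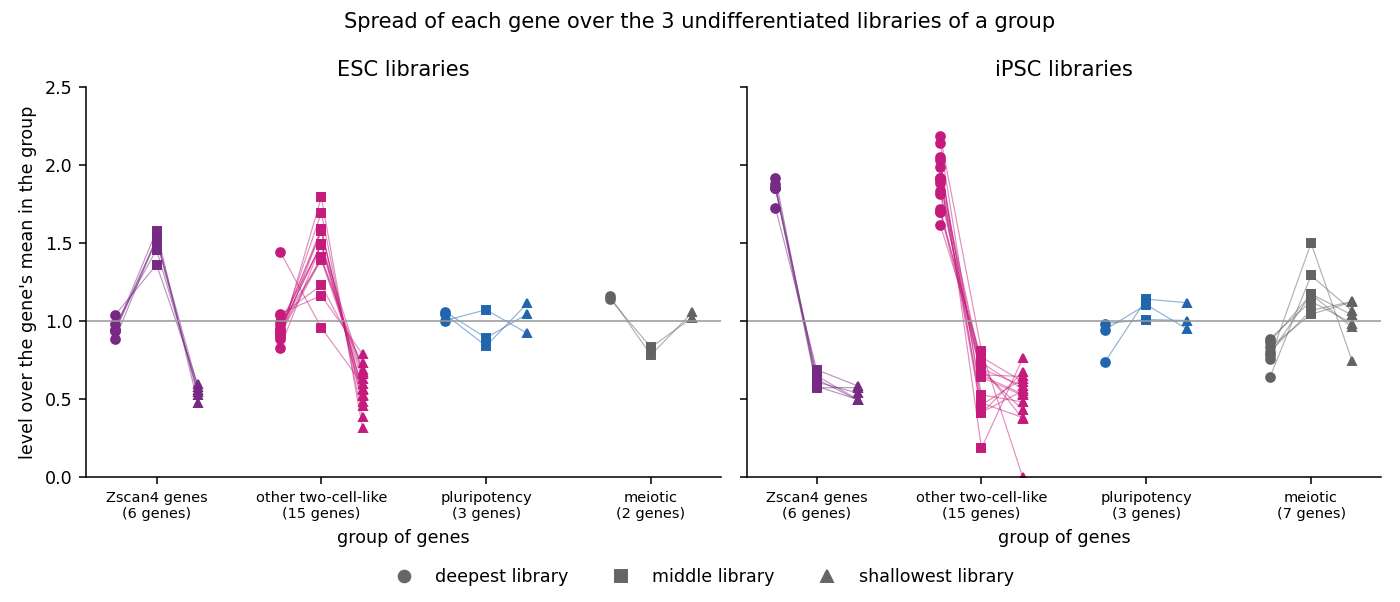
Level of each gene in the deepest, middle and shallowest ESC (left) and iPSC (right) library, divided by its mean in the group, for Zscan4 genes, the 15 other early cleavage transcripts searched, 3 pluripotency markers and meiotic genes. The Zscan4 genes and most of the other early cleavage transcripts have the same library highest in each group, and the pluripotency markers stay closer to 1.

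Most, but not all, markers of pluripotent cells were lower than the Zscan4 copies in ESC-OB, relative to ESC. Gdf3 had 0 reads in all 3 ESC-OB libraries, against 3059, 673 and 750 in the deepest, middle and shallowest ESC library. Fgf4 had 2 reads and Nr0b1 2 reads over the ESC-OB group, and single Zscan4 copies had 29 (Zscan4a) to 60 (Zscan4f). Reads were searched only for markers with a deposited change under -5 in both ESC comparisons, so nothing is read from these low counts. Of 16 pluripotent markers, 15 fell and 1 rose in ESC-OB in the authors' deposited table, with a median of -8.67, with 11 of the 16 below every Zscan4 copy and 4 above every copy. Falls were called for 31% of all genes tested in ESC-OB and 23.1% in iPSC-OB. Nanog, a core factor of pluripotency, was at -11.19 ± 0.43, Tdgf1, a co-receptor of Nodal, at -11.72 ± 0.67, and Tdh, an enzyme of threonine use, at -12.95 ± 0.82. The 4 above were Tfcp2l1 at -3.80 ± 0.25, Klf2 at -2.26 ± 0.31, Klf5 at -0.60 ± 0.18 and Klf4, which many tissues also use and which rose by 0.57 ± 0.15.

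The pluripotent list had a median of -8.79 in sorted GFP+ against ESC. There 5 of the 16 markers lay below every Zscan4 copy and 9 above every copy, the Zscan4 values being fits to 0 reads. Over the sorted libraries Nr0b1 had 4 reads, while Fgf4 and Gdf3 had 0, as had the Zscan4 copies. In iPSC-OB, where 13 markers fell, 1 rose and 2 were not called, Gdf3 had 8 and 2 reads in the deeper and shallower library, against 763, 705 and 623 in iPSC. Fgf4 had 1 and 3 reads in iPSC-OB, against 363, 504 and 439 in iPSC. These counts, of markers picked for a deposited iPSC change under -2, are too low to order the iPSC-OB libraries. In iPSC-OB 10 of the 16 markers lay below every Zscan4 copy and 4 above every copy. Tfcp2l1 (0.28 ± 0.53) and Klf5 (-0.41 ± 0.44) were not called there, and Klf4 rose by 1.13 ± 0.47. Whether pluripotent cells remain in the cultures, and what they would add to the Zscan4 reads, was not tested.

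Most markers of the osteoblast state rose in the cultures. Of 10 such genes 8 rose and 1 fell in sorted GFP+ against ESC, 7 rose and 2 fell in ESC-OB against ESC, and 7 rose and 1 fell in iPSC-OB against iPSC, all in the authors' deposited table. Of all genes tested, 39.1%, 38.6% and 26.1% rose and 32.4%, 31% and 23.1% fell in these comparisons. Col1a1, a type I collagen chain whose promoter drives the reporter, rose by 8.95 ± 0.32 in sorted GFP+ and 7.87 ± 0.32 in ESC-OB, and by 1.62 ± 0.46 in iPSC-OB. Runx2, a factor that osteoblasts need, rose by 7.17 ± 0.85 in sorted GFP+, 7.83 ± 0.85 in ESC-OB and 2.54 ± 0.40 in iPSC-OB. The gene Sp7, an osteoblast factor downstream of it, was not called in ESC-OB (1.69 ± 1.09) but rose by 3.29 ± 1.05 in sorted GFP+. Alpl, an alkaline phosphatase that osteoblasts and stem cells both make, fell in all 3 comparisons, at -3.02 ± 0.69 in sorted GFP+, -4.93 ± 0.69 in ESC-OB and -3.35 ± 0.61 in iPSC-OB. Spp1, a bone matrix protein, fell in ESC-OB (-1.61 ± 0.31) and was not called in sorted GFP+ (-0.44 ± 0.31) or iPSC-OB (-1.13 ± 0.62).

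Of the 45 other transcripts listed for the early cleavage state, 33 were in the ESC tables. In sorted GFP+ cells 31 fell and 1 rose, with a median of -6.87, and in ESC-OB 32 fell and 1 was not called, with a median of -4.33, in the authors' deposited tables. In iPSC-OB 16 of the 28 with an adjusted p fell and 12 were not called (median -2.32 over all 33). Falls among all genes tested were 32.4% in sorted GFP+, 31% in ESC-OB and 23.1% in iPSC-OB. Usp17lb and Usp17lc, which encode deubiquitinases, fell furthest in ESC-OB, at -7.53 ± 1.13 and -7.17 ± 1.16. B020031M17Rik was at -6.45 ± 0.89, and Zfp352, a zinc finger gene of the state, was at -6.27 ± 1.18. Usp17lb had 1 read over the ESC-OB libraries and 282 over ESC. Sp110 was the exception, at 0.83 ± 0.51 (not called) in ESC-OB and rising by 1.83 ± 0.49 in sorted GFP+.

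Not all of them followed the Zscan4 genes into the sorted cells. The deposited change was lower in sorted GFP+ than in ESC-OB for 24 of the 33 and higher for 9, with a median difference of -2.21, where the median over all genes was 0.06. These are fitted values, in part on very few reads. Of the 15 transcripts with recovered reads, 5 had at most 1 read over the ESC-OB libraries. The median is that of Usp17lb, with 1 read over ESC-OB and 0 over sorted GFP+. Zfp352, counted as lower, had 1 read over ESC-OB and 2 over sorted GFP+. Tcstv1, with 0 reads in sorted GFP+ and 15 in ESC-OB, differed by -5.29, and Usp17le, with 0 and 12 reads, by -5.12. On the other side stood Gm8300, at -1.31 ± 0.33 in sorted GFP+ and -3.38 ± 0.40 in ESC-OB, Gm2022, at -1.45 ± 0.38 and -3.17 ± 0.43, and Gm8994, at -2.92 ± 0.36 and -4.83 ± 0.55. These, with Gm5662, Gm2016 and BB287469 on the same side, are Eif1a-like copies and so not independent readings. Read sharing among them was not examined. The transcripts named here were in view when the Zscan4 copies were chosen, and the 2 comparisons share the ESC libraries, so no test is given.

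**Figure D5:**
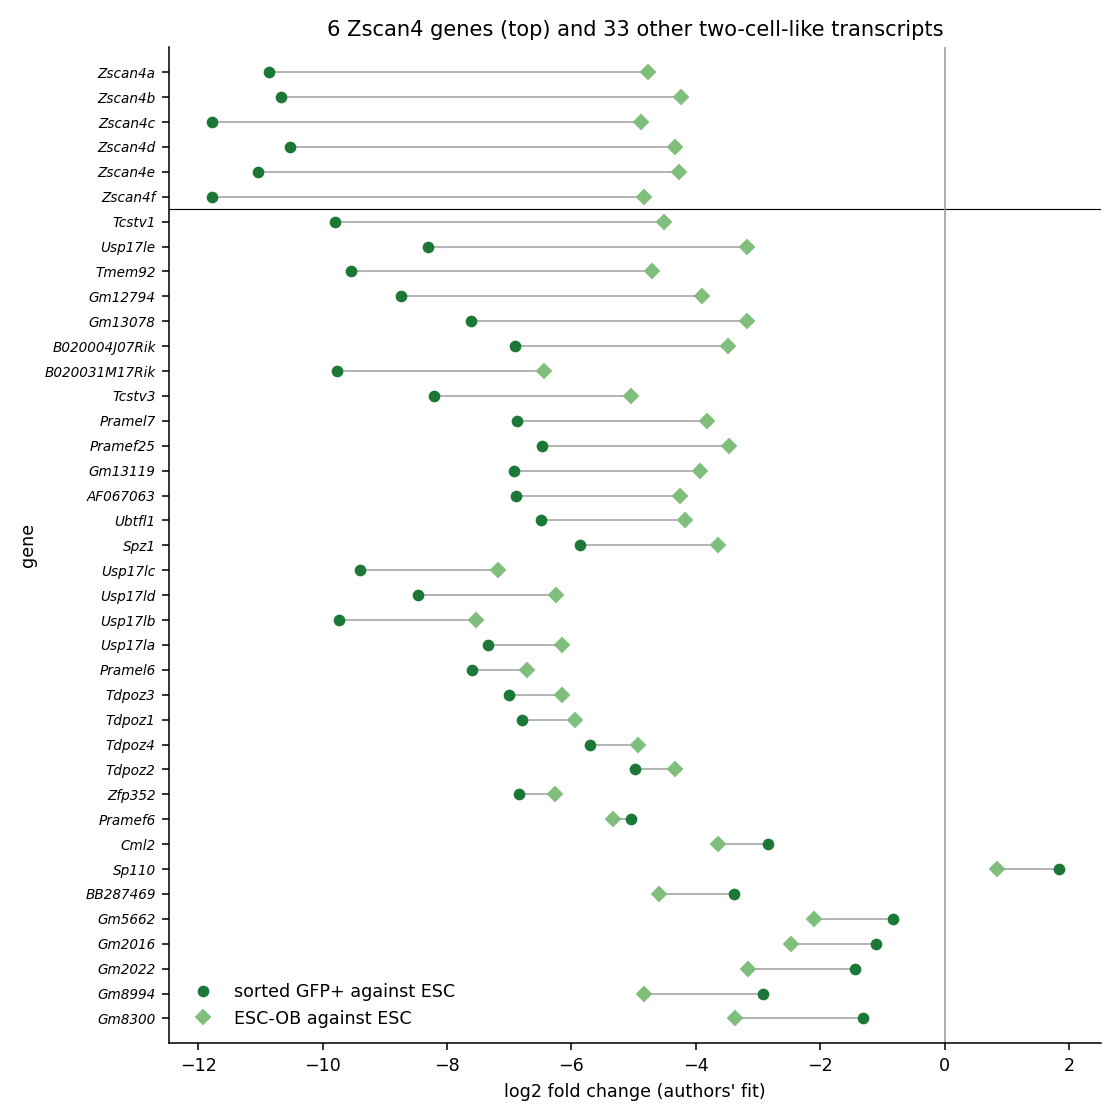
Authors' deposited log2 fold changes in sorted GFP+ against ESC (circles) and ESC-OB against ESC (diamonds) for the 6 Zscan4 genes, above the line, and 33 other transcripts of the early cleavage state. The sorted values of the Zscan4 genes are fits to 0 reads, and 9 of the other transcripts lie higher in the sorted than in the unsorted comparison.

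Over the 3 deposited changes, the genes nearest to the mean of the 6 copies (-11.11 in sorted GFP+, -4.56 in ESC-OB, -4.40 in iPSC-OB) were found by Euclidean distance among 13768 genes with a base mean of at least 10 in both fits. Tcstv1 was the nearest at 1.39, with -9.80, -4.51 and -3.93, and Tmem92 followed at 1.57, with -9.54, -4.71 and -4.46. After them came Ap3b2 (2.29), B020031M17Rik and Naa11 (2.41), Gm12794 (2.48), L1td1 (2.74) and BC080695 (3.00). Tcstv1, Tmem92, B020031M17Rik and Gm12794 are in the list of early cleavage transcripts. The distance uses the changes by which the copies were chosen, among them sorted values fitted to 0 reads, so this order is a description. The copies themselves lay up to 0.93 from their mean.

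Most genes known to act on the state, activators and repressors, were lower in the ESC-derived groups. Among 8 measured activators 7 fell in sorted GFP+ and 7 in ESC-OB, while in iPSC-OB 5 fell and 1 rose, in the authors' deposited tables. Falls among all genes tested were 32.4%, 31% and 23.1% in these comparisons. Dppa2, which opens early cleavage genes, was at -8.44 ± 0.35 in sorted GFP+, -8.80 ± 0.58 in ESC-OB and -5.93 ± 0.39 in iPSC-OB. Dux, a factor that activates them, was at -3.84 ± 0.83, -6.72 ± 1.45 and, not called, -1.94 ± 1.09. Dppa3, a maternal protein that protects methylation in the egg, was at -8.50 ± 0.59, -9.02 ± 1.03 and -8.34 ± 0.65, and Zfp42, a pluripotent zinc finger gene, at -6.98 ± 0.38, -7.47 ± 0.40 and -4.40 ± 0.60. Smad7, an inhibitor of TGF-beta signals, was called in none of the 3 (-0.35, -0.39 and -0.63). Tbx3, a T-box factor, fell in sorted GFP+ (-4.22 ± 0.29) and ESC-OB (-3.62 ± 0.29) and rose in iPSC-OB (1.08 ± 0.36).

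Of 19 repressors 18 fell in sorted GFP+, 16 in ESC-OB and 15 in iPSC-OB in the authors' deposited tables, and 1, 3 and 4 were not called (medians -2.34, -1.58 and -1.11). Falls among all genes tested were 32.4%, 31% and 23.1%. Chaf1b, a subunit of the chromatin assembly factor, was at -2.88 ± 0.26 in sorted GFP+, -3.59 ± 0.27 in ESC-OB and -1.80 ± 0.31 in iPSC-OB. Rif1, which holds repressive chromatin at the Zscan4 cluster in mouse stem cells, was at -3.85 ± 0.17, -3.11 ± 0.18 and -2.30 ± 0.18. Lin28a, an RNA-binding protein, was at -6.26 ± 0.63, -3.58 ± 0.62 and -2.03 ± 0.16, and L3mbtl2, a Polycomb-like protein, at -2.62 ± 0.20, -3.05 ± 0.21 and -2.25 ± 0.23. Smchd1 and Zmym2 were not called in ESC-OB (-0.03 ± 0.11 and 0.13 ± 0.09) but fell in sorted GFP+ by 1.82 ± 0.11 and 1.04 ± 0.09.

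Telomere genes fell in part. The list of 19 telomere genes holds those of telomerase and shelterin, the complex that caps chromosome ends, and others such as Obfc1, Atrx and Daxx. Of the 19 genes, 15 fell and 3 rose in sorted GFP+, 16 fell and 3 were not called in ESC-OB, and 11 fell and 8 were not called in iPSC-OB, in the authors' deposited tables (medians -1.23, -1.55 and -1.06). Falls among all genes tested were 32.4%, 31% and 23.1%. Tert, the catalytic subunit of telomerase, was at -3.71 ± 0.42 in sorted GFP+, -3.03 ± 0.44 in ESC-OB and -1.14 ± 0.32 in iPSC-OB. Dkc1, which stabilises telomerase RNA, was at -4.34 ± 0.18, -3.87 ± 0.19 and -3.15 ± 0.23, its partner Nhp2 at -2.20 ± 0.13, -2.99 ± 0.14 and -2.94 ± 0.17, and Terf1, a shelterin protein, at -2.95 ± 0.19, -2.81 ± 0.20 and -1.17 ± 0.37. Terf2ip and Obfc1 were not called in ESC-OB (0.32 ± 0.16 and 0.09 ± 0.18) and rose in sorted GFP+ (0.50 ± 0.15 and 0.63 ± 0.17), as did Acd, a shelterin protein (0.79 ± 0.16).

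Of the meiotic genes 9 of 11 fell and 1 rose in sorted GFP+ and in ESC-OB alike, and 8 of 12 fell, 1 rose and 3 were not called in iPSC-OB. Falls among all genes tested were 32.4%, 31% and 23.1% in sorted GFP+, ESC-OB and iPSC-OB. The meiotic gene that rose was Msh5, a meiotic MutS protein, at 2.10 ± 0.69 in sorted GFP+, 1.63 ± 0.71 in ESC-OB and 2.48 ± 0.63 in iPSC-OB. Hormad1, a protein of the meiotic chromosome axis, was at -11.47 ± 0.84 in sorted GFP+, -11.76 ± 1.31 in ESC-OB and -4.57 ± 0.67 in iPSC-OB, in the authors' deposited tables. It had 2 reads over the sorted libraries and 0 over ESC-OB, against 3274 over ESC. Dmc1 was at -6.10 ± 0.63, -5.10 ± 0.70 and -3.61 ± 0.55, the cohesin subunit Smc1b at -4.88 ± 0.51, -4.84 ± 0.61 and -3.19 ± 0.70, and Hormad2, a relative of Hormad1, at -3.65 ± 0.64, -4.12 ± 0.72 and, not called, -0.70 ± 0.93.

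Other genes with a SCAN domain, the protein-binding domain of the Zscan4 proteins, did not move as a group. Of 24 such genes 11 fell and 5 rose in sorted GFP+, 6 fell and 9 rose in ESC-OB, and 5 fell and 9 rose in iPSC-OB, with medians of -0.37, 0.20 and 0.37. Of all genes tested, 32.4%, 31% and 23.1% fell and 39.1%, 38.6% and 26.1% rose in these comparisons. The ESC-OB counts lie near those shares. Zscan10, a factor of pluripotent cells, was at -7.45 ± 0.35 in sorted GFP+, -7.54 ± 0.43 in ESC-OB and -3.71 ± 0.37 in iPSC-OB in the authors' deposited tables, and Zscan5b was at -7.92 ± 1.10, -7.96 ± 1.48 and -5.18 ± 1.10. In ESC-OB, Zkscan2 rose by 1.67 ± 0.42 and Scand1, which has the domain without zinc fingers, by 1.47 ± 0.23. Zscan26 and Zscan21 were not called there (0.23 ± 0.16 and 0.01 ± 0.20).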

How the data were processed

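The 3 comparison tables were made by the authors from bulk messenger RNA sequencing. Per the submitters' processing notes, the tools were STAR 2.4.2a, DESeq2 and R 3.2.2 and the build mm9, without roles. The sources used here do not give the counting step. Per the file headers, each deposited row gives a signal (the base mean, counts over size factors averaged over libraries), a log2 fold change and its standard error, the test statistic as a score, and a p-value before and after adjustment. Columns of values per single sample numbered 0. A negative change was taken as lower in differentiated cells, because Nanog and Pou5f1 are negative in every table.

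The value of 1 read in each library was found from the lowest base means, and explained 2040 of 2040 base means under 1 in the ESC fit (9 libraries) and 1959 of 1959 under 1.5 in the iPSC fit (5 libraries), but 0 after adding 1e-06. Every combination of whole reads that gives a gene's base mean was then refitted with a shrunken negative binomial model like that of the authors, with the dispersion set by the deposited standard error. For 6 of 6 Zscan4 genes 1 combination per fit gave the deposited fold changes, within 4.28e-05 (log2), the next best being off by at least 1.03. The search held at most 8 reads over the sorted libraries. The search was tested on simulated reads, and of the markers searched Utf1 had no solution in the ESC fit. No test was run on recovered reads, since the search can be done only for genes with few reads in the differentiated libraries. The p-values are the authors' and set each change against an error based on the spread between libraries, which may be technical.

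The genes and lists were chosen with earlier results of these data known. From each list, up to 4 called genes with the largest ESC-OB change at a base mean of at least 10 and up to 2 not called are named, and further genes of the same lists (Tcstv1, Tmem92, Gdf3, Fgf4, Nr0b1, Klf2, Klf4, Klf5, Tfcp2l1, Alpl, Spp1, Tbx3, Acd, Msh5 and those far apart in both ESC comparisons) after their values were seen. Called means an authors' adjusted p under 0.05. Bone and calvarial samples were not analysed here. Python 3.11.15 with NumPy 2.4.6, SciPy 1.17.1 and numba 0.67.0 was used.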

Additional observations from a re-analysis of the deposited data

How the results depend on the processing

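In iPSC-OB all 6 Zscan4 genes were called as falls at an adjusted p threshold of 0.01 (18.9% of all genes), with base means of at least 10 (27.9%) and with no filter (21%). So were they in both ESC comparisons, from which they were chosen, so nothing is read from that count. The share of all genes called as falls there was taken only at the main threshold (31% in ESC-OB, 32.4% in sorted GFP+). Median changes moved by less than 1 standard error after re-centring on the median gene (-4.74 in ESC-OB, -11.15 in sorted GFP+, -4.41 in iPSC-OB) and without any single copy. The settings that follow were chosen after seeing the data. From recovered reads the median was -4.62 in ESC-OB and -4.70 in iPSC-OB, and -9.70 in sorted GFP+ (a limit with 3 reads over the group, against -10.94 fitted), so the sorted minus unsorted difference was -5.27, against -6.60. Leaving out each library gave medians of -4.92 to -4.20 (ESC-OB) and -5.91 to -3.89 (iPSC-OB), and -1.58 to 0.55 for the iPSC minus ESC difference (0.05 as deposited). For the sorted cells each ESC library was left out, which moved the median limit over -9.98 to -9.29, and no sorted library was, as all hold 0 reads. The lower ends in iPSC-OB are without the shallower iPSC-OB library. The summed sorted level is 0.110 CPM as fitted, 0.256 with copies at the limit and 0 from reads. Counting 2 iPSC libraries, as labelled, gave 153 CPM in iPSC, against 135. The ESC-OB and iPSC-OB depths limit single copies to 5 to 28 and 4 to 16 reads per library. No paired analysis was possible because the tables hold comparisons and no library could be tied to a replicate number.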

Other observations

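Outside the cluster, the nearest genes with a base mean of at least 10 in RefSeq order were Zik1 on one side and Zfp551 on the other, a choice made after seeing the data. RefSeq lists 12 genes between Zik1 and the cluster and 56 between Zfp551 and the cluster, so neither flanks it directly. In the authors' deposited tables Zik1, a zinc finger gene, was at -2.39 ± 0.22 in sorted GFP+, -1.68 ± 0.24 in ESC-OB and -0.87 ± 0.31 in iPSC-OB, and Zfp551 at -1.12 ± 0.38 in sorted GFP+, -0.21 ± 0.39 in ESC-OB and 0.01 ± 0.52 in iPSC-OB. Both changed far less than any Zscan4 gene in the same comparison.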
